A study of Mus musculus with 138 samples.

Results

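The libraries described here are single-embryo RNA libraries of mouse embryos at the 2-cell stage, from zygotes injected with a non-target antibody (IgG) in the TrimAway experiment and from uninjected zygotes of the same replicate. They were chosen by their titles, which name IgG or no injection and replicate 3, and by a total of at least 100000 counts. All 15 libraries with these titles passed that minimum, 10 labelled IgG and 5 labelled uninjected, out of 138 libraries in the series. The embryos of both groups are wild type per the series' design text, and sequencing was done on the same lane. The injected embryos were collected at least 24 hours after injection. Neither the strain nor the way in which TRIM21 was supplied is given in the labels used here. The replicate number names a pool of embryos, and the design text calls such pools technical replicates. The p-values below therefore measure the spread between embryos of 1 pool and not between independent injection sessions.

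TRIM21 is a cytosolic receptor for the constant part of antibodies and a ubiquitin ligase. In TrimAway it is supplied to a cell together with an antibody, and the protein bound by that antibody is ubiquitinated and degraded by the proteasome. IgG has no intended target in the embryo, so IgG against no injection compares embryos that went through injection with embryos that did not. At the 2-cell stage the embryo degrades transcripts stored in the egg and starts to transcribe its own genome, with a burst of stage-specific genes and a rise in ribosome production.

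The 10 IgG libraries held 700845 to 4139661 counts and the 5 uninjected libraries 746111 to 967761. Levels are given as CPM (counts per 1000000 counts), scaled with edgeR's TMM factors unless stated otherwise, and log2 changes are IgG minus uninjected. The plate separated the groups in part: all 5 uninjected libraries stood in plate column 4, together with IgG wells A04 and B04, and the other 8 IgG libraries stood in column 3. Group and plate column cannot be told apart for those 8. IgG wells A04 and B04 differed from the rest, with median Spearman correlations to the other libraries of 0.54 and 0.65 and TMM factors of 0.59 and 0.62. The other 13 libraries had median correlations of 0.69 to 0.82. Uninjected well H04 held transcripts of macrophages, described below. Where leaving out A04 and B04, or H04, moved a log2 change printed below by over 1.5 times, the second value is given beside it.

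Trim21 RNA (chromosome 7, positions 102557922 to 102565469 in GRCm38) marked the injected group but not every library in it. It was read in 8 of 10 IgG libraries and in none of the 5 uninjected ones. In CPM of the total count, IgG wells B03, F03, E03, H03 and A04 held 1513, 1366, 1212, 726 and 340 CPM. Wells D03, C03 and G03 held 24.3, 16.7 and 4.75 CPM, from 17, 22 and 7 counts. Wells A03 and B04 held 0 counts, in libraries of 4139661 and 1778279 counts, where 3 counts would be 0.725 and 1.69 CPM. The 5 uninjected libraries also held 0 counts, where 3 counts would be 3.10 to 4.02 CPM. The IgG libraries thus spread over 5 with at least 945 counts, 3 with 7 to 22 counts and 2 at 0 that overlap with the uninjected group.

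The mean of the IgG libraries, 520 CPM, was at least 143-fold higher than the mean of the uninjected floors of 3 counts per library. The difference in mean log2(CPM + 1) gave p = 0.0147 in a two-sided exact permutation test over the 15 libraries, and 0.0879 after Benjamini-Hochberg adjustment over the 6 library measures tested this way. The smallest p that this design allows is 0.000333. In the fit across all genes the edgeR quasi-likelihood test gave p = 0.000568 and an adjusted p of 0.488. DESeq2 gave an adjusted p of 3.43e-05 for the same 15 libraries. Trim21 was also read in all 7 anti-SMARCA5 libraries of replicate 3, at 207 to 3587 CPM. It was read above 3 counts in 0 of 10 IgG libraries of replicate 1, so the label IgG does not go with Trim21 reads in every pool.

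**Figure D1:**
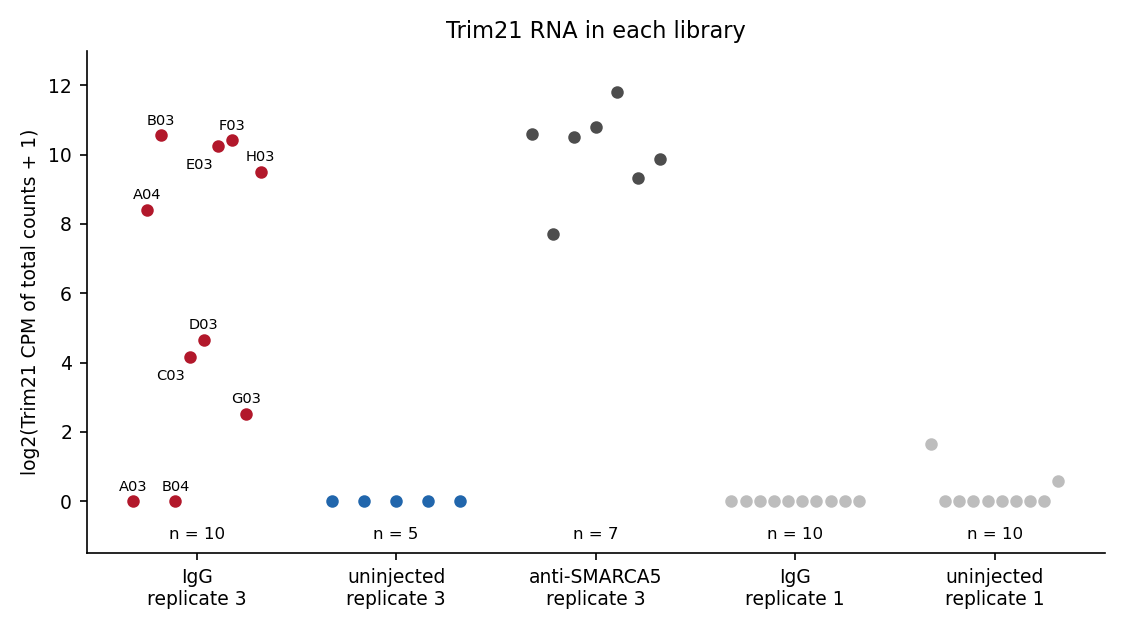
Each point is 1 library and the vertical axis is log2(Trim21 CPM of the total count + 1); wells are named for the IgG libraries of replicate 3. Of these, 5 lie at 340 CPM or more, 3 between 4.75 and 24.3 CPM and 2 at 0, where all 5 uninjected libraries lie; the 7 anti-SMARCA5 libraries lie at 207 CPM or more and the 10 IgG libraries of replicate 1 at 0.

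Smarca5, the gene of the chromatin remodeller that the study degraded with its specific antibody, is not targeted by IgG. Its level was 256 to 1373 CPM in IgG libraries, with a median of 664, and 344 to 876 CPM in uninjected libraries, with a median of 475. The groups overlapped, with 7 of 10 IgG libraries above the uninjected median. The log2 change was 0.62 (standard error (SE) 0.41, edgeR adjusted p = 0.602).

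Across the transcriptome no gene passed the threshold of an adjusted p under 0.05. With edgeR, 0 of 9348 tested genes (0%) were called. At an unadjusted p under 0.05 there were 916 genes (9.8%), 662 higher (7.08%) and 254 lower (2.72%) in IgG libraries. The smallest adjusted p was 0.488. Limma with quality weights also called 0 genes, with 858 at an unadjusted p under 0.05. DESeq2 called 42 genes (0.449% of the 9348), 41 of them higher in IgG libraries. In that fit 8700 of the 9348 genes had no adjusted p and so could not be called. With its own filter on low means switched off, DESeq2 called 6. The direction of the unadjusted split depended on the scaling and the tool. In edgeR with DESeq2 size factors it was 611 higher and 319 lower. With total counts only it was 244 higher and 373 lower, where the median change of all genes was -0.27 instead of -0.03. Limma, with TMM factors, gave 354 higher and 504 lower.

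The share at an unadjusted p under 0.05 moved with the libraries that stood apart. Without IgG wells A04 and B04, 489 of 8964 genes (5.46%) lay there, and without these and uninjected well H04, 385 genes (4.12%). Within plate column 4, where A04 and B04 faced the 5 uninjected libraries, edgeR called 1744 of 10019 genes (17.4%), 1018 higher (10.2%) and 726 lower (7.25%). Of the 42 genes that DESeq2 called, 40 were among these 1744. Without A04 and B04, DESeq2 called 4 genes, of which Trim21 alone was among the 42. In that fit 12 genes had no adjusted p, against 8700 with all 15 libraries. The 42 and the 4 were thus adjusted over unlike sets of genes. With all 15 libraries and no filter on low means the count was 6. Of the 42, 40 still lay at an unadjusted DESeq2 p under 0.05 without A04 and B04, against 592 of all 8964 genes (6.61%). The 42 had been picked with the same other libraries, so this is a description and no second test.

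**Figure D2:**
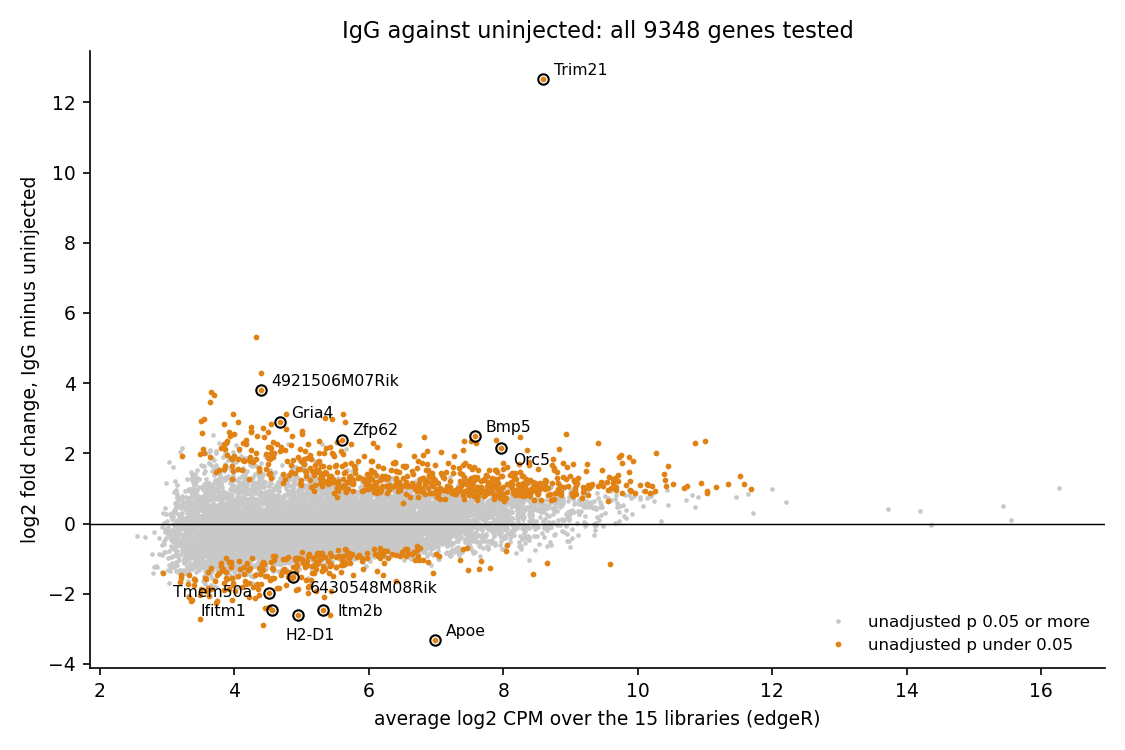
Each point is 1 of the 9348 genes tested, with the average log2 CPM on the horizontal axis and the log2 change, IgG minus uninjected, on the vertical axis; orange marks an unadjusted p under 0.05, and 12 named genes are ringed. Trim21 lies far above all other genes, and no gene had an adjusted p under 0.05.

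The genes named next were those of smallest p in each direction whose average log2 CPM was 4 or more. None of them passed the threshold, and each had an edgeR adjusted p of 0.488. Zfp62, a zinc finger gene, was 26.2 to 125 CPM in the 10 IgG libraries, with a median of 55.4. In the 5 uninjected libraries it was 10.9, 25.3, 12.8, 9.98 and 1.35 CPM. The groups did not overlap, with a log2 change of 2.39 (SE 0.54). The uncharacterised gene 4921506M07Rik was 6.41 to 132 CPM in IgG libraries, with its highest value in A04, and 0 to 4.87 CPM in uninjected libraries, again without overlap. It held 3 counts or fewer in 4 of the 5 uninjected libraries, and it overlaps 2 genes on the other strand. These belong to 21 tested genes (0.225%) whose groups did not overlap, 11 higher (0.118%) and 10 lower (0.107%) in IgG libraries.

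Orc5, a subunit of the origin recognition complex of DNA replication, was 1111 and 843 CPM in A04 and B04 and 75.7 to 243 CPM in the other 8 IgG libraries. In uninjected libraries it was 38.4 to 89.9 CPM, so 9 of 10 IgG libraries lay above all 5. Its log2 change was 2.15 (SE 0.60) with all libraries and 1.20 without A04 and B04. Bmp5, a ligand of the TGF-beta family, was 669 and 633 CPM in A04 and B04, 25.8 to 291 CPM in the other IgG libraries and 18.8 to 86.6 CPM in uninjected ones. Its log2 change was 2.498 (SE 0.63), and 1.82 without those 2 wells.

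Cetn3, which encodes the centriole protein centrin, had a median of 122 CPM in IgG libraries and 39.9 CPM in uninjected ones. The log2 change of Cetn3 was 1.96 (SE 0.46). Gria4, a subunit of AMPA glutamate receptors, had medians of 28.5 and 4.87 CPM. Stk3, a kinase of the Hippo pathway, had medians of 96.7 and 35.2 CPM. For each of Cetn3, Gria4 and Stk3, 9 of 10 IgG libraries lay above every uninjected library. The histone methyltransferase gene Suv39h2 had medians of 144 and 58.5 CPM, and the ubiquitin protease gene Usp47 194 and 90.7 CPM. Zfp318 and Zfp930, both zinc finger genes, had log2 changes of 1.29 (SE 0.36) and 2.36 (SE 0.68). All 11 genes kept a positive log2 change under every alternative in which they were tested. Each was highest in A04, B04 or, for Zfp62, B03.

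**Figure D3:**
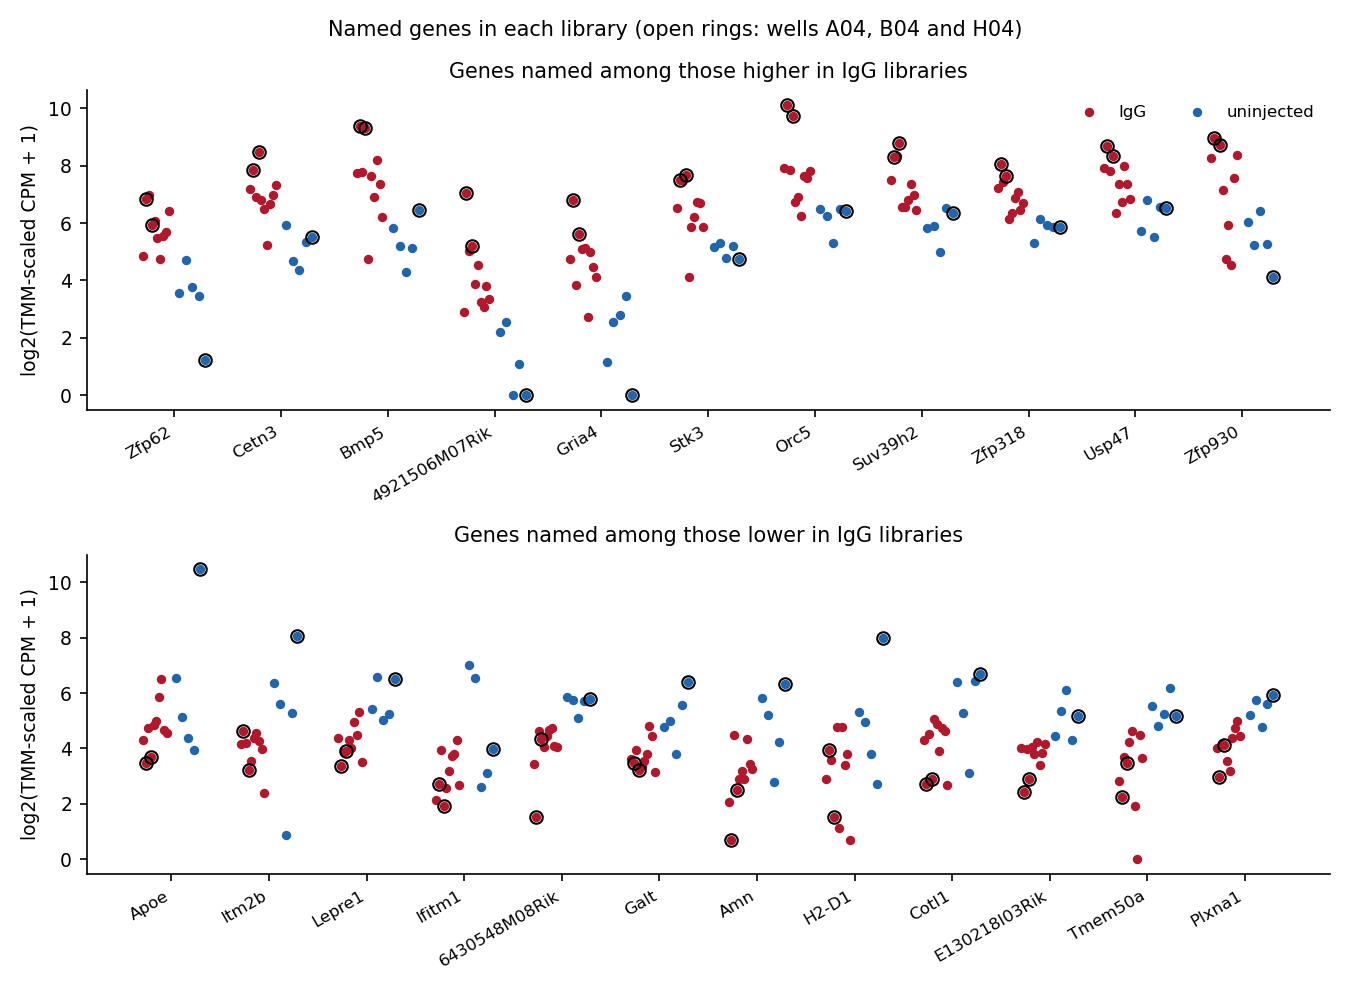
Each point is 1 library and the vertical axis is log2(TMM-scaled CPM + 1), for 11 named genes with a higher and 12 with a lower level in IgG libraries; rings mark IgG wells A04 and B04 and uninjected well H04. A04 and B04 are the 2 highest IgG libraries for Bmp5 and Orc5. H04 is the highest library for Apoe, Itm2b, H2-D1, Galt, Cotl1, Amn and Plxna1.

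Among the genes with lower values in IgG libraries, 3 of the 12 named ones did not overlap between the groups. The first, 6430548M08Rik, was 1.88 to 25.7 CPM in IgG libraries and 33.3 to 57.0 CPM in uninjected ones, with a log2 change of -1.52 (SE 0.44). Tmem50a, which encodes a membrane protein, was 0 to 23.5 CPM against 27.3 to 72.1 CPM, with a log2 change of -1.98 (SE 0.59). E130218I03Rik was 4.39 to 17.8 CPM against 18.9 to 67.4 CPM, with a log2 change of -1.505 (SE 0.44). E130218I03Rik overlaps Zfp593 on the other strand and 6430548M08Rik overlaps Gm20388, so their reads are uncertain. Without A04, B04 and H04 the log2 changes of 6430548M08Rik, Tmem50a and E130218I03Rik were -1.37, -1.94 and -1.34.

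Other genes of this direction carried more of their difference in single uninjected libraries. Apoe, a lipid carrier abundant in macrophages, was 1414 CPM in H04 and 14.4 to 92.2 CPM in the other 4 uninjected libraries, against 10.03 to 89.98 CPM in IgG libraries. Its log2 change was -3.31 (SE 0.78) with H04 and -0.33 without it. H2-D1, a class I histocompatibility gene, was 252 CPM in H04 and 5.55 to 38.8 CPM in the other uninjected libraries. The log2 change of H2-D1 was -2.60 (SE 0.76) with H04 and -0.96 without it. Itm2b, a membrane protein gene, was 263 CPM in H04, and its log2 change was -2.45 with and -1.40 without that library. Ifitm1, an interferon-induced membrane protein gene, was high in D04 and E04 instead, at 127 and 91.6 CPM, and 5.12 to 14.9 CPM in the other 3. IgG libraries held 2.77 to 18.9 CPM of Ifitm1.

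Lepre1, a prolyl hydroxylase gene of collagen folding, had medians of 16.96 CPM in IgG and 42.4 CPM in uninjected libraries. Plxna1, a semaphorin receptor gene, had medians of 16.7 and 47.7 CPM. For each of Lepre1 and Plxna1, 9 of 10 IgG libraries lay below every uninjected library. Galt, an enzyme of galactose metabolism, had medians of 10.95 and 31.2 CPM, the actin-binding protein gene Cotl1 20.5 and 83.7 CPM, and Amn, part of a receptor for vitamin uptake, 7.38 and 36.0 CPM. All 10 IgG libraries lay below the uninjected median for Galt, Cotl1 and Amn, but the groups overlapped. Well H04 was the highest library for Galt, Cotl1 and Amn, at 82.5, 103 and 78.5 CPM. Their log2 changes were -1.58, -1.79 and -2.12 with H04 and -1.13, -1.54 and -1.69 without it.

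Gene lists that bear on injection of an antibody were counted next, without a test of the list. Of 18 tested genes of the TRIM21 pathway and ubiquitin conjugation, 2 were higher and 0 lower at an unadjusted p under 0.05 (11.1%, against 9.8% of all genes). The median log2 change of this list was -0.02, against -0.03 over all genes, and 0.19 without A04 and B04. Beside Trim21 the second was Ube2d3, a ubiquitin-conjugating enzyme, at 4402 and 5435 CPM in A04 and B04, 906 to 1742 CPM in the other IgG libraries and 618 to 1205 CPM in uninjected ones. Its log2 change was 1.08 (SE 0.45), and 0.45 without A04 and B04. Of 32 proteasome subunits, 0 were higher and 2 lower (6.25%), Psmd3 and Psmb4, with a median of -0.39 for the list and -0.18 without A04 and B04. Psmd3 was 29.7 to 116 CPM in IgG and 81.2 to 164 CPM in uninjected libraries, with a log2 change of -0.89 (SE 0.35).

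Genes of RNA sensing and the interferon response were mostly low. Of 31 listed genes 13 passed the filter on low counts. At an unadjusted p under 0.05, 0 of these were higher and 1 lower (7.69%, against 9.8% of all genes). That gene was Mavs, the adaptor of cytosolic RNA receptors, with medians of 22.7 CPM in IgG and 50.3 CPM in uninjected libraries and a log2 change of -0.996 (SE 0.46). The list's level, the mean of log2(CPM + 1) over its genes, was 1.29 to 2.22 in IgG libraries and 1.48 to 2.56 in uninjected ones. Of 11 tested genes of NF-kappaB signalling, 0 were higher and 3 lower (27.3%): the transcription factor subunits Rela and Relb and the inhibitor Nfkbia. The log2 changes of Rela, Relb and Nfkbia were -1.25 (SE 0.55), -1.13 (SE 0.54) and -1.09 (SE 0.50). The highest values of Rela and Nfkbia, 65.0 and 82.5 CPM, lay in uninjected well H04, and without it their log2 changes were -0.63 and -0.34. Rela, Relb and Nfkbia are expressed at a low level, with IgG medians of 10.9, 16.4 and 14.8 CPM.

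Stress and repair genes were counted in the same way, beside the 9.8% of all genes at an unadjusted p under 0.05. No gene passed the unadjusted threshold among 20 tested genes of the unfolded protein and integrated stress response or among 16 of oxidative stress. Of 18 heat shock protein genes 0 were higher and 2 lower (11.1%). These were Hsp90ab1 and Hspa8, cytosolic chaperones with log2 changes of -1.13 (SE 0.52) and -1.102 (SE 0.51). Of 24 genes of p53 and DNA damage, 2 were higher and 1 lower (12.5%). The damage kinases Atm and Chek1 had log2 changes of 0.86 (SE 0.34) and 1.03 (SE 0.45), and the growth inhibitor Btg2 -1.47 (SE 0.56). Without A04 and B04 the log2 change of Chek1 was 0.47. Of 12 apoptosis genes 1 was lower (8.33%). This was Casp6, an effector caspase, at 0 to 20.3 CPM in IgG libraries and 24.2 to 46.0 CPM in uninjected ones, without overlap.

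Of 14 immediate early genes 0 were higher and 2 lower, Btg1 and Btg2 (14.3%, against 9.8% of all genes). A negative log2 change was found for 12 of the 14, against 51.7% of all genes. The median of this list was -0.61 with all libraries and -0.28 without H04. Btg1 was highest in H04, at 590 CPM, and its log2 change was -1.04 (SE 0.44) with that library and -0.41 without it. Of 13 membrane repair genes 2 were higher and 0 lower (15.4%). Pdcd6ip, an adaptor of the ESCRT machinery, and the annexin gene Anxa7 had log2 changes of 1.06 (SE 0.43) and 0.80 (SE 0.36). Without A04 and B04 they were 0.58 and 0.44. Of 20 autophagy and lysosome genes 1 was higher and 3 lower (20%, against 9.8% of all genes). The genes with lower values were Sqstm1, an autophagy receptor, Ctsd and Lamp1. Atg5, needed to form autophagosomes, was 117 to 500 CPM in IgG and 65.0 to 142 CPM in uninjected libraries. The lysosomal genes Ctsd and Lamp1 had log2 changes of -1.65 (SE 0.53) and -1.05 (SE 0.44). The highest value of Ctsd, 329 CPM, and of Lamp1, 139 CPM, lay in uninjected well H04. Without H04 their log2 changes were -1.16 and -0.66.

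Transcripts stored in the egg had, with TMM factors, larger values in A04 and B04 than in the other libraries. Of 42 tested maternal transcripts, 9 were higher and 0 lower at an unadjusted p under 0.05 (21.4%, against 9.8% of all genes). The median log2 change of the list was 0.53, against -0.03 over all genes, and 0.21 against -0.27 without TMM factors. Bmp15, a growth factor of the oocyte, was 6393 and 4302 CPM in A04 and B04, 189 to 1551 CPM in the other 8 IgG libraries and 147 to 717 CPM in uninjected ones. Oog1, an oocyte gene, was 925 and 582 CPM in A04 and B04, 37.3 to 198 CPM in the other IgG libraries and 9.38 to 79.8 CPM in uninjected ones. The level of the whole list was highest in A04 and B04 of the 15 libraries. With total counts only, without TMM factors, they ranked 10 and 6 from the lowest. Without A04 and B04 the median of the list was 0.22, and 1 of 41 genes lay at an unadjusted p under 0.05.

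Genes of ribosomes had low values in the same 2 wells. Of 76 tested cytosolic ribosomal protein genes, 73 had a negative log2 change, but 0 were higher and 3 lower, Rpl7a, Rpl31 and Rpl34, at an unadjusted p under 0.05 (3.95%, against 9.8% of all genes). The median log2 change of the list was -0.71, and -0.45 without A04 and B04. Its level was 3.54 and 4.21 in A04 and B04, 5.50 to 7.03 in the other 8 IgG libraries and 5.85 to 7.86 in uninjected ones. The 8 IgG libraries of plate column 3 overlapped with the uninjected group, with medians of 6.16 and 6.27. Within plate column 4, edgeR called 0 ribosomal protein genes higher and 47 lower of 76, with a median of -2.74, and 15 maternal transcripts higher and 1 lower of 43, with a median of 0.97. Over all genes in that fit, 10.2% were called higher and 7.25% lower, and the median was -0.26.

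Other growth genes followed the same 2 wells. The level of 24 nucleolar and rRNA processing genes was 4.41 and 5.11 in A04 and B04, 5.76 to 7.04 in the other IgG libraries and 6.07 to 7.86 in uninjected ones. Proteasome subunits were at 4.19 and 4.71 in A04 and B04 and 5.59 to 6.62 in the other IgG libraries, whose median of 6.13 lay beside an uninjected median of 6.07. A04 and B04 did not share every feature. The level of 2-cell stage genes was 2.61 in A04, the lowest of the 15 libraries, and 5.78 in B04, while the other IgG libraries lay at 3.75 to 6.37. Trim21 was also unlike, with 945 counts in A04 and 0 in B04. Their mitochondrial share was 23.1% and 29.8%, within the 13.2% to 36.0% of the other IgG libraries.

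**Figure D4:**
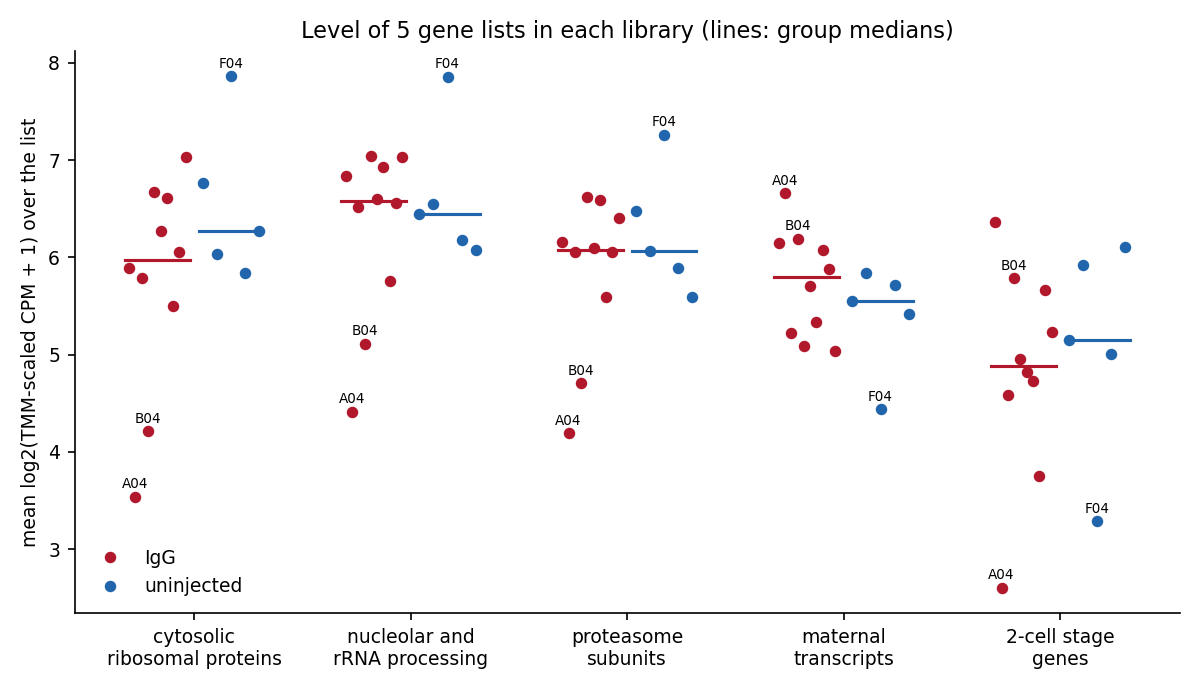
Each point is 1 library, and the vertical axis is the mean of log2(TMM-scaled CPM + 1) over the genes of a list; lines are group medians. IgG wells A04 and B04 are the 2 lowest libraries for ribosomal proteins, nucleolar genes and proteasome subunits and, with TMM factors, the 2 highest for maternal transcripts. Uninjected well F04 is the highest library in the first 3 lists and the lowest for maternal transcripts.

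The other lists concern the stage, the cell cycle and mitochondria. Of 28 tested 2-cell stage genes 0 were higher and 1 lower, the variable-copy gene Gm4340, with medians of 8.16 CPM in IgG and 41.2 CPM in uninjected libraries. Zfp352, an abundant marker of this stage, was 25.1 to 421 CPM in IgG and 21.3 to 460 CPM in uninjected libraries. Of 31 DNA replication genes, 0 lay at an unadjusted p under 0.05. Of 24 M-phase genes 3 were higher and 2 lower (20.8%, against 9.8% of all genes), with Mad2l1, Bub1 and Wee1 on the higher side and Cdc20 and Cdc25a on the lower. The spindle checkpoint genes Mad2l1 and Bub1 had log2 changes of 0.96 (SE 0.40) and 0.79 (SE 0.35), and without A04 and B04 that of Mad2l1 was 0.52. Of 13 mitochondrially encoded genes 0 were higher and 1 lower, mt-Nd3, and 10 of 13 had a positive log2 change, with a median of 0.40 for the list and 0.04 without A04 and B04. The share of counts from mitochondrial genes was 20.9% ± 7.35 (SD, n = 10) in IgG libraries and 19.04% ± 8.54 (SD, n = 5) in uninjected ones, with an exact permutation p of 0.666 (two-sided). None of 10 tested genes from a list named in earlier work on anti-SMARCA5 libraries of this series lay at an unadjusted p under 0.05.

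The tissue label was checked against markers. Embryo and oocyte genes were abundant in both groups, as the values of Bmp15 and Zfp352 show. Of markers of other cells, 7 sperm genes summed to 0 to 5.36 CPM in IgG and 0 to 8.12 CPM in uninjected libraries. The sum of 6 fibroblast genes was 0.717 to 44.5 CPM in IgG and 0 to 9.7 CPM in uninjected libraries. Among these, the sperm genes Akap4 and Smcp and the fibroblast genes Col3a1, Dcn and Lum were at 0 in all 15 libraries. Of 19 genes of cumulus and granulosa cells 3 passed the filter on low counts, and 1 of these, Kitl, was higher at an unadjusted p under 0.05, with a log2 change of 1.04, and 0.57 without A04 and B04. Ptx3, Amh, Ereg and Btc were at 0 in all libraries, and the sum of the list was 63.1 to 171 CPM in IgG and 74.3 to 169 CPM in uninjected libraries. The 8 oviduct genes summed to 45.8 to 268 CPM in IgG and 104 to 223 CPM in uninjected libraries, with medians of 141 and 173. Epcam alone made up most of this, with medians of 138 and 152 CPM, and Pax8 was at 0 in all libraries.

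Macrophage markers set 1 uninjected library apart. The sum over 19 such genes was 2352 CPM in H04, 96.5 to 264 CPM in the other 4 uninjected libraries and 39.5 to 208 CPM in the IgG libraries. In H04, 18 of the 19 genes had more than 3 counts. Lyz2, the lysozyme of macrophages, had 978 counts (1323 CPM) in H04 and at most 18.2 CPM in the other 14 libraries. Tyrobp, Emr1, C1qc and C3ar1 had 72, 38, 41 and 34 counts in H04 and 0 in every other of the 14. Of the other 65 TrimAway libraries, 64 held 0 counts of Tyrobp. The sum over 6 blood cell genes, among them Lyz2, Tyrobp and Ptprc of the macrophage list, was 1466 CPM in H04, at most 43.6 CPM in the other uninjected libraries and at most 31.1 CPM in IgG libraries. Csf1r, Fcgr3 and Cd163 were present in other libraries too, at up to 28.9, 245 and 17.1 CPM. The part of macrophage RNA in the other genes with lower values in IgG libraries was not tested.

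**Figure D5:**
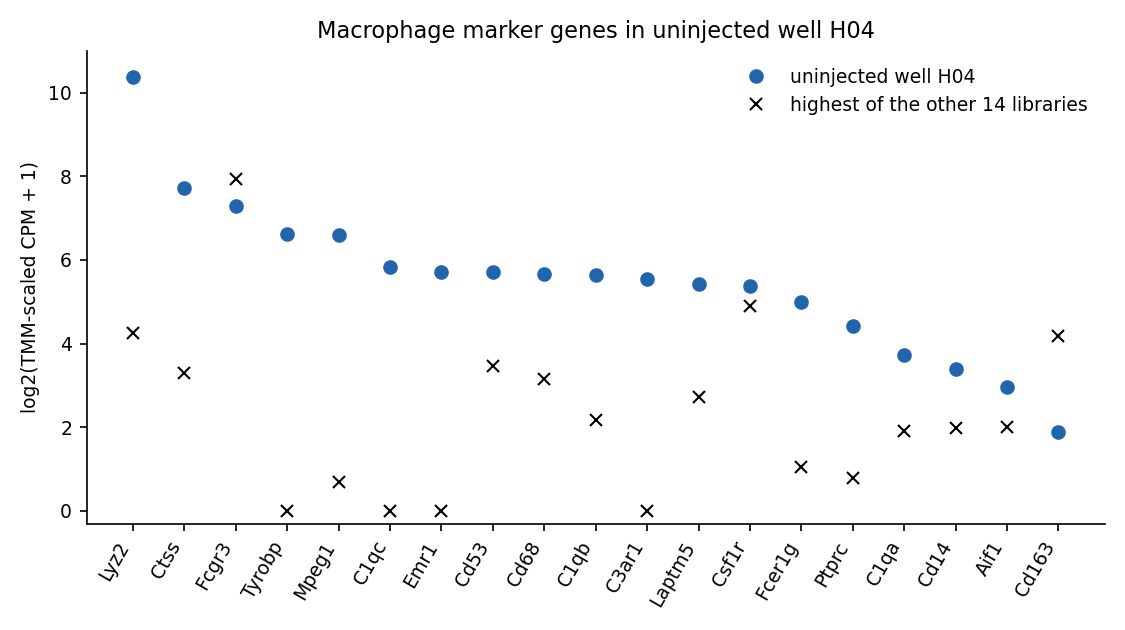
For 19 macrophage genes the vertical axis gives log2(TMM-scaled CPM + 1) in uninjected well H04 (circles) and the highest value of the other 14 libraries (crosses). H04 is higher for all genes except Fcgr3 and Cd163, and 4 genes are at 0 in the other 14 libraries.

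Whether the effect of IgG differed between pools was tested against replicate 1, where 10 IgG libraries faced 10 uninjected ones. Trim21 was read in 8 of 10 IgG libraries of replicate 3 and in 0 of 10 of replicate 1. Pool and Trim21 reads therefore cannot be told apart in this comparison. Of 12282 genes, edgeR called 2 (0.0163%) for a difference between the pools, Usp47 and Lyz2, and 1169 (9.52%) lay at an unadjusted p under 0.05. CPM here and in the next paragraph were scaled with TMM factors over all TrimAway libraries of at least 100000 counts. Usp47 had median CPM of 196 in IgG and 82.8 in uninjected libraries of replicate 3, and of 67.5 and 123 in replicate 1. Its log2 changes were 1.38 and -0.78, with a difference of 2.16 (SE 0.43, adjusted p = 0.0487). Without A04 and B04 the difference for Usp47 was 1.88 (adjusted p = 0.107), and the gene was called in 7 of 22 alternatives, with adjusted p-values between 0.00302 and 0.133. The difference for Lyz2, -10.99 (SE 1.97, adjusted p = 0.039), rested on H04: without that library it was -5.74 (adjusted p = 0.391). No gene was called without A04 and B04 or without H04, with 873 and 1074 genes at an unadjusted p under 0.05, and DESeq2 called 21 with all libraries.

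In the direction of Lyz2, Dusp11, Apoe, AC211878.1 and Gm4340 followed and were not called. Their differences were -3.263, -4.202, -5.695 and -8.083, with edgeR adjusted p-values of 0.0905, 0.0905, 0.0994 and 0.0994. AC211878.1 and Gm4340 had medians of only 1.91 and 0.217 CPM in uninjected libraries of replicate 1. Bmp5, Scml2, Wdr47 and Fam184a, which followed among genes with a larger effect in replicate 3, were not called. Bmp5 had medians of 201 and 33.5 CPM in replicate 3 and 60.5 and 81.1 CPM in replicate 1, with a difference of 3.04 (SE 0.64, adjusted p = 0.0902). The anti-SMARCA5 libraries of replicate 3 have the same uninjected controls, so their values for these genes are a description. They held medians of 861 CPM of Bmp5, 295 CPM of Usp47, 234 CPM of Wdr47, 203 CPM of Scml2 and 92.7 CPM of Fam184a. Their lowest values of Bmp5, Usp47 and Wdr47 were 284, 185 and 152 CPM, against highest uninjected values of 79.1, 103 and 86.6 CPM. For Scml2 and Fam184a the groups overlapped, with lowest anti-SMARCA5 values of 79.1 and 35.1 CPM against highest uninjected values of 123 and 41.6 CPM.

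The number of genes detected did not separate the groups. After thinning each library to 100000 counts it was 9020 ± 817 (SD, n = 10) in IgG libraries and 9692 ± 655 (SD, n = 5) in uninjected ones. The difference of -672 genes gave p = 0.137 in a two-sided exact permutation test, and 0.234 adjusted over the 6 library measures. The 2 lowest values, 7871 and 7723 genes, were those of A04 and B04, and without them the difference was -367 genes (two-sided exact permutation p = 0.303).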

How the data were processed

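PolyA RNA of single 2-cell embryos was sequenced after the scNMT-seq protocol with Nextera XT, per the labels' protocols. The authors deposited whole-number read counts per gene, not normalized; the submitters' processing notes name Trim Galore 0.6.5, cutadapt 2.3, HISAT2 2.1.0 and GRCm38, and the handling of strand, duplicates and read pairs is not given in the sources used here. Low odd counts outnumbered even ones (20227 values of 1, 4283 of 2 and 13027 of 3 in the 15 libraries), so counting error from single reads can be too small, and floors cover counting error only. The 57 gene identifiers on more than 1 line were summed, giving 25900 genes.

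Groups came from the titles. IgG was compared with uninjected libraries of replicate 3 in edgeR 4.0.16 (R 4.3.3) with TMM, filterByExpr and the robust quasi-likelihood F test, on these 15 libraries, and genes with a Benjamini-Hochberg adjusted p under 0.05 over all tested genes were called. The SE is the log2 change divided by the square root of F. The difference from replicate 1 was the interaction in a fit of both pools. Single values per library were tested with two-sided exact permutation over libraries. DESeq2 1.42.0, limma 3.58.1, other scalings and filters, plate column 4 alone and each library left out were alternatives. No 2 libraries were near-identical (chi-square per degree of freedom at least 8.71). Scripts were tested on simulated data.

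Named genes were Trim21 and Smarca5, the 12 genes of smallest p in each direction whose average log2 CPM was 4 or more (no gene being called), the 3 of smallest p in each list, and 5 per direction for the interaction. A few others are named because a count holds 5 genes or fewer or as markers, after their values were seen. The libraries and lists were chosen with earlier results of these data known; the macrophage list and the alternatives without A04, B04 and H04 were added after the data had been seen. One list came from earlier results on these libraries and supports nothing.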

Additional observations from a re-analysis of the deposited data

Results flagged for a closer look

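Outlying libraries were looked for in 108 combinations of a measure and a group of 10 IgG or 5 uninjected libraries, with Dixon's test. It flagged 9. Chance gives about 1 in 20 only for measures chosen without these data. The named genes were picked by their p in these libraries, so the 9 cannot be set against that rate. Uninjected well H04 lay far above its group for macrophage genes, at a list level of 5.52 against 1.14 for the next library. That list was added after the data had been seen, so this flag describes H04 and tests nothing. Uninjected well F04 lay apart in 4 measures: lowest for the unfolded protein and integrated stress response (4.91 against 5.61), highest for nucleolar and rRNA processing genes (7.86 against 6.54), lowest for Orc5 at a log2(CPM + 1) of 5.30 against 6.23, and lowest for 6430548M08Rik at 5.10 against 5.70. IgG well A04 was lowest for p53 and DNA damage genes (3.94 against 4.28) and for 6430548M08Rik (1.53 against 3.44). IgG well C03 was lowest for Stk3 (4.13 against 5.87), and IgG well F03 highest for sperm genes, at a list level of 0.38 against 0.11.

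The effect of IgG differed between the pools for Usp47, by 2.16 on the log2 scale with a larger value in replicate 3, and for Lyz2, by -10.99, by edgeR's test of the difference itself. Pool and Trim21 reads cannot be told apart in that test. Usp47 was called in 7 and Lyz2 in 11 of 22 alternatives. Both calls were lost when IgG well A03, A04, B03, B04 or G03 or uninjected well H04 was left out alone. Without H04 the difference for Lyz2 was -5.74.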

How the results depend on the processing

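No paired analysis was possible because all 15 libraries carry the replicate number 3. The number of genes called was 0 in edgeR and limma under the other scalings and filters, without the libraries at or under 3 Trim21 counts, and with each library left out (0 to 0). It was 42 with DESeq2, 6 with DESeq2 without independent filtering, 4 with DESeq2 without A04 and B04, 1744 within plate column 4 and 1 with all TrimAway libraries in 1 fit. Trim21 was called in 4 fits, with fitted log2 changes (which depend on the prior count) of 11.47 (DESeq2, with and without independent filtering), 11.67 (DESeq2 without A04 and B04) and 12.80 (all TrimAway libraries); with each library left out it was 12.12 to 12.86 and never called. Smarca5 kept its direction and was called in none of 32 alternatives (0.49 to 0.92 with each library left out).

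Genes whose effect differed between pools numbered 1 with DESeq2 size factors in edgeR, 21 with DESeq2, and 0 without the filter on low counts, without the libraries at or under 3 Trim21 counts, without A04 and B04, and without H04. They numbered 0 to 4 with each of the 15 libraries of replicate 3 left out (none of replicate 1 was): 0 without IgG A03, B03, G03, A04 or B04 or uninjected H04, 1 without IgG F03 or uninjected D04, and 4 without IgG H03. The difference in detected genes was -873 to -421 with each library left out, and 447.5 (exact permutation p = 0.243) when libraries were not thinned.

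Of 2733 combinations of 86 named genes with an alternative, 2676 kept direction and side of the threshold, 48 passed it, 40 of these in plate column 4, and 9 reversed: Hmox1 at 0.14 without H04 (-1.353 to 0.139 with each library left out) and 0.29 without A04, B04 and H04; Dll1 at 0.764 without H04 (-1.344 to 0.764 with each library left out) and 0.45 in plate column 4; Tnfaip6 at 0.21 in plate column 4; Smyd5 without F04 (-1.391 to 0.0461 with each library left out); mt-Co3 at -0.16 with DESeq2 without A04 and B04. The cause was not tested. Depth, 700845 counts in the shallowest library, limits genes near 3 counts.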

Other observations

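Genes read in 1 library at 10 CPM or more and in each of the other 14 at 1 CPM or less numbered 69 in IgG well A04, 26 in uninjected well H04 and 0 to 9 elsewhere. In H04 they were led by Tyrobp, Mpeg1, Ms4a7, Pla2g7 and Clec4a2, at 97.4, 96.1, 86.6, 77.1 and 75.8 CPM. In A04 they were led by the transporter gene Slc38a11 at 91.5 CPM and included olfactory receptor genes such as Olfr1052 at 47.6 CPM. Uninjected well F04 had the lowest mitochondrial share of the 15 libraries, 8.21%, and the fewest genes with any count, 12263.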
